A study of Mus musculus with 8 samples.

Results

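Ccl17, Ccl19, Ccl20, Ccl22, Ccl24 and Ccl25 are the CC chemokines grouped here as attractants of dendritic cells, lymphocytes and, for Ccl24, eosinophils. They were selected by gene symbol, with no threshold on a measured value but with earlier results of these data known. All 6 are among the 18901 genes of the deposited table. Each was measured by RNA sequencing in cheek skin of 8 mice, 1 library per mouse, to ask how loss of the transcription factor TBX20 in keratinocytes alters the RNA of skin injected with BNP, a natriuretic peptide that evokes scratching. The 4 TBX20fl/fl;K14-Cre mice carry floxed alleles of Tbx20 (exons 2 and 3) and a Cre driven by the keratin 14 promoter, so that the gene is deleted in keratinocytes and every other skin cell keeps it. The 4 control mice were TBX20fl/fl littermates, which carry the same floxed alleles without Cre. All mice were 7-week-old females that received 10 µg of BNP into the left cheek and were killed 5 h after their behaviour had been recorded for 30 min, so both groups had the peptide, and skin without BNP was not analysed here. Library totals were 16056282 to 19880654 estimated counts.

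Chemokines are small secreted proteins that bind receptors on leukocytes and direct their movement. Ccl17 and Ccl22 are made mainly by dendritic cells and macrophages and share the receptor Ccr4 of skin-homing T cells. Ccl19 guides mature dendritic cells and naive T cells through Ccr7, Ccl20 is made by epithelial cells including keratinocytes and draws Ccr6-bearing cells, Ccl24 (eotaxin-2) draws eosinophils through Ccr3, and Ccl25 acts through Ccr9 and is best known from thymus and small intestine.

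The promoters are shown for the Ccr4 ligand pair, which lie in the same region of the genome, and for Ccl20, the member known from keratinocytes, so that their letters can be set beside the values that follow. Ccl22 (NCBI gene 20299) occupies chr8:94745684-94751388 and Ccl17 (gene 20295) chr8:94809380-94812038, both on the plus strand and 57991 bases apart, and Ccl20 (gene 20297) occupies chr1:83116766-83119167, also on the plus strand. Each sequence is the 250 bases upstream of a RefSeq transcript start on GRCm38.p6, read 5′ to 3′, at chr8:94810203-94810452 for Ccl17, chr8:94745434-94745683 for Ccl22 and chr1:83116516-83116765 for Ccl20. The Ccl17 window precedes a start that lies inside the gene span given above, and not the outermost start of that span. Capitals mark a match to a searched motif.
Ccl17: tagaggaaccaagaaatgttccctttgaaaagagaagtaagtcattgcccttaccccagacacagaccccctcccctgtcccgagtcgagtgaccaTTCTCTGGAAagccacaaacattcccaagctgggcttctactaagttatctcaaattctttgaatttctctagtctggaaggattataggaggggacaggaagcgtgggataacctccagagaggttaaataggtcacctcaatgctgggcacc
Ccl22: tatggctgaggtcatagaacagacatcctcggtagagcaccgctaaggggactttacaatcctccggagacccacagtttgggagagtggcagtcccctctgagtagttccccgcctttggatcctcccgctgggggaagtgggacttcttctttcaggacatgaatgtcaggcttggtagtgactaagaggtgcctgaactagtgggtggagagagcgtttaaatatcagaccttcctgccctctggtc
Ccl20: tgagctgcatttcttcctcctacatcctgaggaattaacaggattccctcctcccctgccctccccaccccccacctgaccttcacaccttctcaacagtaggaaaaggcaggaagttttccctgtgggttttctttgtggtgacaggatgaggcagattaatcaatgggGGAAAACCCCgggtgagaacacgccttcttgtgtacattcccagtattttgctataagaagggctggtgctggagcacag
Both strands were searched for TATAAA, the AP-1 motif TGANTCA, the STAT6 motif TTCNNNNGAA and the NF-kB consensus. The Ccl17 window held a STAT6 motif match at 154 to 145 bases before that inner start, and the Ccl20 window held an NF-kB match on the minus strand at 80 to 71 bases before its start. The Ccl22 window held none of the 4 motifs. Among 32851 RefSeq windows of this length 5.85% held the STAT6 motif, 3.9% the NF-kB consensus, 6.75% the AP-1 motif and 12.4% TATAAA. These are matches of letters and not binding sites measured in these mice.

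Tbx20 itself was at the limit of detection in whole cheek tissue. The rounded count was 2, 1, 0 and 1 in TBX20fl/fl;K14-Cre replicates 1 to 4 and 2, 1, 0 and 3 in TBX20fl/fl replicates 1 to 4, so these libraries do not check the deletion. The tissue held markers of keratinocytes, with summed FPKM of 4443 to 5246 over 11 genes in the TBX20fl/fl;K14-Cre group and 4033 to 5534 in controls, and of skeletal muscle, at 9161 to 15224 and 12058 to 17160 over 9 genes. The library of TBX20fl/fl replicate 2 stood apart, with a TMM scaling factor of 0.735 (1.01 to 1.07 in the rest) and a median Spearman correlation with the other mice of 0.844 against 0.957 to 0.984. Its deviation from the mean of the mice fell with transcript length (Spearman correlation across 13298 genes -0.782), as did that of TBX20fl/fl replicate 3 at -0.353, whereas the other 6 mice were at 0.262 to 0.623. The 6 chemokine transcripts are 465 to 1762 bases long by the deposited counts and FPKM, so log2 fold changes are also given without these mice.

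The mean level of every chemokine was lower in TBX20fl/fl;K14-Cre skin, but no chemokine passed the test across all genes. The edgeR quasi-likelihood test gave Benjamini-Hochberg adjusted p-values of 0.498 to 0.567 for the 6 members, and 0 of 17124 genes tested (0%) had one under 0.05. At an unadjusted p under 0.05, 1431 genes (8.36%) were called, DESeq2 called 10 genes (0.0584%) after adjustment and limma on FPKM called 0 of 15969. None of the 10 was a member. Ccl17, Ccl19 and Ccl20 were the 3 of 6 members with an unadjusted edgeR p under 0.05, in the lower direction, against 5.91% of all genes, and 0 of 6 had one in the higher direction, against 2.45%. DESeq2 also gave 3 of 6 in the lower direction, against 8.29% of all genes. The log2 fold change from counts was below 0 for 6 of 6 members, with a median of -0.78, against 47.5% of all genes and a median of 0.026. The members were chosen with earlier results of these data known, so these counts beside the shares of all genes do not test the group. The FPKM ranges of the genotypes overlapped for all 6, so 0 of 6 were wholly lower, against 1.87% of all genes, and 0 of 6 wholly higher, against 5.19%. In bulk tissue, fewer cells of a type and less RNA per cell cannot be told apart.

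The count of members depended on single mice of both genotypes. With each mouse left out in turn, 2 to 5 of 6 members had an unadjusted edgeR p under 0.05 in the lower direction. The count was 2 without TBX20fl/fl;K14-Cre replicate 1 (3.15% of all genes), TBX20fl/fl;K14-Cre replicate 2 (4.06%), TBX20fl/fl replicate 2 (4.5%) or TBX20fl/fl replicate 3 (4.36%), and 5 without TBX20fl/fl replicate 4 (9.89%). The median was lowest, at -0.998, without TBX20fl/fl replicate 4 and highest, at -0.48, without TBX20fl/fl replicate 2. Without TBX20fl/fl replicates 2 and 3, an alternative chosen after seeing the data, 1 of 6 did (2.54% of all genes) and the median was -0.095. With a trend on transcript length removed from each mouse, 0 of 6 did (5.71% of all genes) and the median was -0.32. With the replicate block added to that fit, 1 of 6, Ccl20, did (1080 of 17124 genes) and the median was -0.30. The replicate number as a block gave 2 of 6 (6.54% of all genes).

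**Figure D1:**
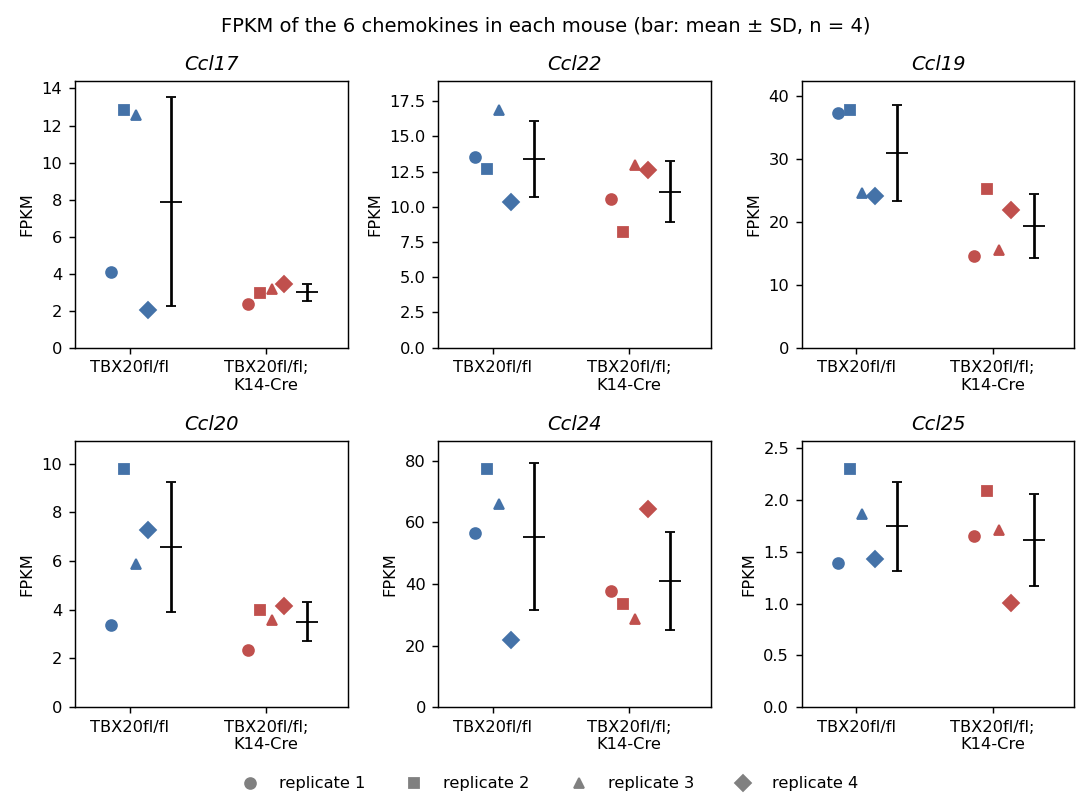
FPKM of the 6 chemokines (vertical axes, each from 0) in each of 4 TBX20fl/fl mice (blue) and 4 TBX20fl/fl;K14-Cre mice (red), with the replicate number as the marker and the mean ± SD (n = 4) beside each group. For Ccl17 the TBX20fl/fl mice split into 12.86 and 12.59 for replicates 2 and 3 and 4.06 and 2.02 for replicates 1 and 4, and the red points lie from 2.34 to 3.46.

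Ccl17, the Ccr4 ligand of dendritic cells and Langerhans cells, varied more among controls, relative to its mean, than any other member. Its FPKM was 2.34, 2.94, 3.17 and 3.46 in TBX20fl/fl;K14-Cre replicates 1 to 4 and 4.06, 12.86, 12.59 and 2.02 in TBX20fl/fl replicates 1 to 4. TBX20fl/fl replicates 2 and 3 were far above all other mice, and TBX20fl/fl replicate 4 was the lowest of all. The means were 2.98 ± 0.475 and 7.88 ± 5.65 (SD, n = 4 each), with p = 0.229 in a two-sided exact permutation test. These values rest on 21 to 32 estimated counts in the TBX20fl/fl;K14-Cre group and 18 to 111 in controls. From counts, the log2 fold change was -1.63 (SE 0.602, edgeR Benjamini-Hochberg adjusted p = 0.498). It was -1.09 without TBX20fl/fl replicate 2, -0.77 with the length trend removed and -0.04 without TBX20fl/fl replicates 2 and 3, where the FPKM ratio of the means was 0.979. Without TBX20fl/fl replicate 4, in contrast, the FPKM ranges no longer overlapped (difference -6.86, exact permutation p = 0.0286, the smallest possible). That mouse is the only control not above every TBX20fl/fl;K14-Cre mouse. The share of all genes whose ranges part without it was not counted. Without TBX20fl/fl replicates 2 and 3 the genotypes had nearly the same mean Ccl17 level.

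Ccl22, the other Ccr4 ligand, had a narrower range. Its FPKM was 10.58, 8.19, 12.95 and 12.59 in TBX20fl/fl;K14-Cre replicates 1 to 4 and 13.56, 12.69, 16.91 and 10.37 in TBX20fl/fl replicates 1 to 4. TBX20fl/fl replicate 3 was the highest, and the other control values lay among or next to those of the TBX20fl/fl;K14-Cre mice. The means were 11.1 ± 2.19 and 13.4 ± 2.71 (SD, n = 4 each; exact permutation p = 0.257). In counts the log2 fold change was -0.45 (SE 0.219, edgeR Benjamini-Hochberg adjusted p = 0.498). It was -0.26 with the length trend removed and -0.15 without TBX20fl/fl replicates 2 and 3.

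The balance of the 2 Ccr4 ligands differed among the control mice. FPKM is per transcript length, which allows their levels to be set side by side, but Ccl17 is 465 and Ccl22 1762 bases long. The mice with the highest ratios, TBX20fl/fl replicates 2 and 3, are those whose deviation fell with transcript length, and the part of that trend in the ratio was not tested. The Ccl17 to Ccl22 ratio was 0.221, 0.359, 0.245 and 0.275 in TBX20fl/fl;K14-Cre replicates 1 to 4 and 0.299, 1.01, 0.745 and 0.195 in TBX20fl/fl replicates 1 to 4. Ccl17 reached the level of Ccl22 in TBX20fl/fl replicate 2 and stood well below it in the 6 mice other than TBX20fl/fl replicates 2 and 3. On the log2 scale the ratio differed by -0.76 between genotypes (-1.89 ± 0.301 against -1.13 ± 1.11, SD, n = 4 each), with p = 0.314 in the exact permutation test. This difference was -0.38 without TBX20fl/fl replicate 2 (exact permutation p = 0.600) and -1.17 without TBX20fl/fl replicate 4 (exact permutation p = 0.0571). Of the other 4 ratios examined, Ccl20 to Ccl22 was lower in TBX20fl/fl;K14-Cre mice in 4 of 4 numbered pairs of mice (sign-flip exact p = 0.125, the smallest possible), and Ccl17 to Ccl20, Ccl24 to Ccl22 and Ccl19 to Ccl22 in 3 of 4 (exact sign-flip p = 0.875, 0.875 and 0.250).

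**Figure D2:**
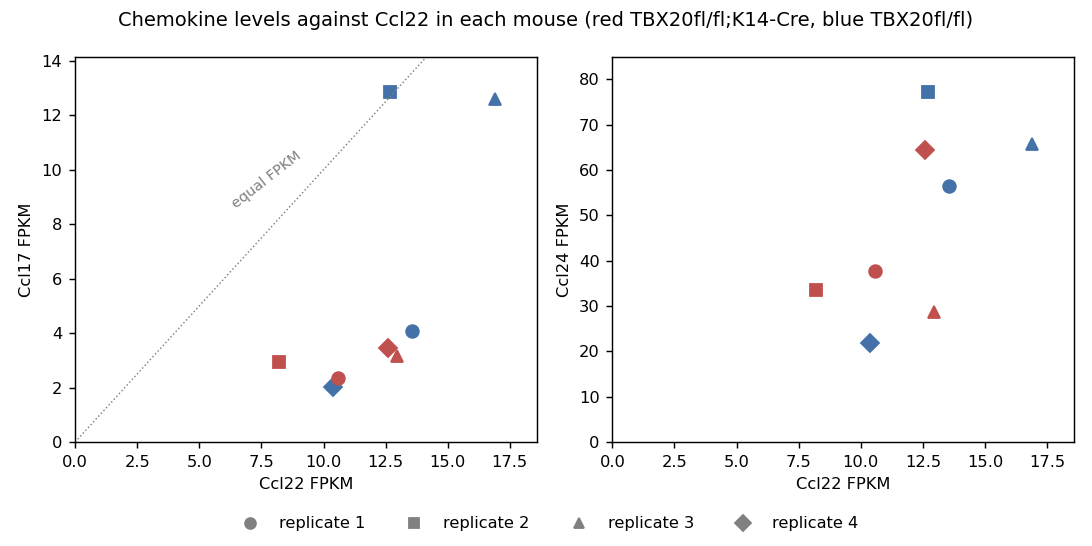
FPKM of Ccl17 (left) and Ccl24 (right) against FPKM of Ccl22 in each mouse (red TBX20fl/fl;K14-Cre, blue TBX20fl/fl, marker for the replicate number, dotted line where Ccl17 equals Ccl22). TBX20fl/fl replicate 2 lies on the dotted line at a ratio of 1.01, and the mouse with the lowest Ccl24, TBX20fl/fl replicate 4 at 21.90, also has the lowest Ccl17.

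Ccl19, the Ccr7 ligand that steers dendritic cells toward lymph nodes, was lower in TBX20fl/fl;K14-Cre mice in every same-numbered pair, though the groups met at their edges. Its FPKM was 14.57, 25.30, 15.57 and 21.93 in TBX20fl/fl;K14-Cre replicates 1 to 4 and 37.44, 37.91, 24.62 and 24.19 in TBX20fl/fl replicates 1 to 4. TBX20fl/fl;K14-Cre replicate 2 was the single mouse of its group above any control. The means were 19.3 ± 5.14 and 31.0 ± 7.67 (SD, n = 4 each; exact permutation p = 0.0857). By counts the log2 fold change was -0.89 (SE 0.291, unadjusted p = 0.0130, edgeR Benjamini-Hochberg adjusted p = 0.498). Unlike that of Ccl17, this value was still -0.71 without TBX20fl/fl replicates 2 and 3, and it was -0.38 with the length trend removed.

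Reads of Ccl19 may be shared with near-identical copies. The gene (NCBI gene 24047, chr4:42754525-42756518, minus strand) lies within 4930578G10Rik on the opposite strand, with no exon in common. Of its 914 annotated stretches of 50 bases, the length of a read, 475 (52.0%) also occur in Ccl19-ps1, Ccl19-ps3, Gm12407 or Gm2564, and the last pair of these has rows in the deposited table. Summed with Gm12407 and Gm2564, the FPKM was 22.94, 45.17, 24.66 and 38.62 in TBX20fl/fl;K14-Cre replicates 1 to 4 and 56.64, 65.97, 45.22 and 41.31 in TBX20fl/fl replicates 1 to 4. The sum thus differed between the genotypes much as Ccl19 alone did, with a log2 fold change of -0.89 (SE 0.306, edgeR Benjamini-Hochberg adjusted p = 0.498).

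Ccl20, the Ccr6 ligand, was likewise lower in TBX20fl/fl;K14-Cre mice in 4 of 4 same-numbered pairs. Its FPKM was 2.35, 3.97, 3.59 and 4.15 in TBX20fl/fl;K14-Cre replicates 1 to 4 and 3.38, 9.77, 5.88 and 7.26 in TBX20fl/fl replicates 1 to 4. All controls but TBX20fl/fl replicate 1 were above every TBX20fl/fl;K14-Cre mouse. The means were 3.52 ± 0.811 and 6.57 ± 2.67 (SD, n = 4 each; exact permutation p = 0.114), on 34 to 62 and 50 to 118 estimated counts. The fitted log2 fold change from counts was -1.14 (SE 0.396, unadjusted p = 0.0177, edgeR Benjamini-Hochberg adjusted p = 0.498), and -0.70 without TBX20fl/fl replicate 2, -0.63 without TBX20fl/fl replicates 2 and 3 and -0.53 with the length trend removed. Without TBX20fl/fl replicate 1 the FPKM ranges no longer overlapped, with a difference of -4.12 and an exact permutation p of 0.0286, the smallest that 3 mice against 4 allow. The mouse left out is the control that overlapped, and the share of all genes whose ranges part without it was not counted.

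**Figure D3:**
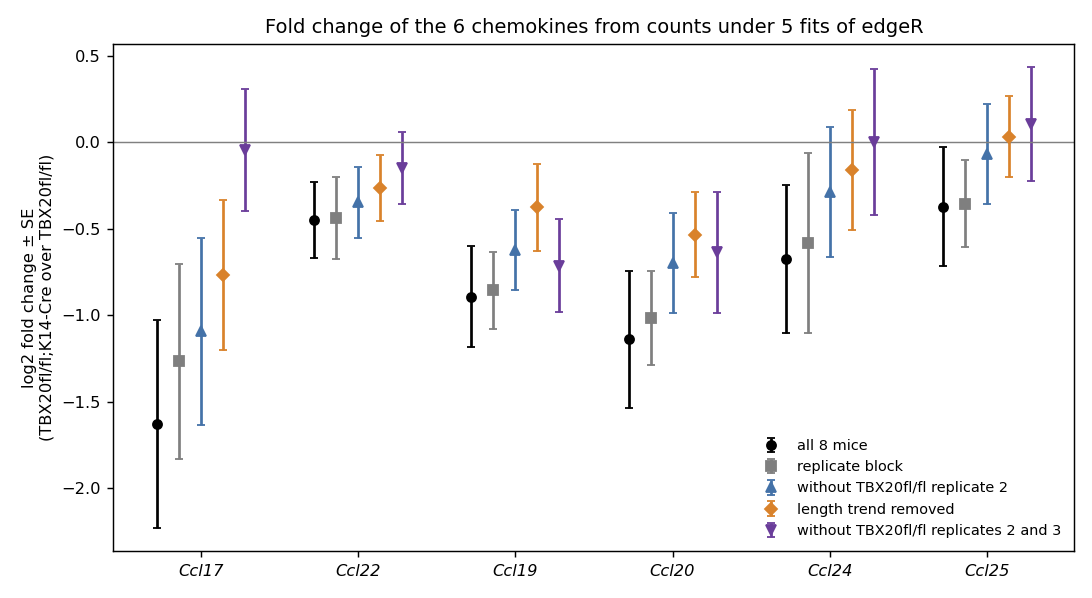
Log2 fold change from counts (TBX20fl/fl;K14-Cre over TBX20fl/fl, vertical axis) with its standard error for the 6 chemokines under 5 edgeR fits, coded by colour and marker. Ccl17 goes from -1.63 with all 8 mice to -0.04 without TBX20fl/fl replicates 2 and 3, Ccl19 from -0.89 to -0.71 and Ccl20 from -1.14 to -0.63.

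Ccl24, the eosinophil attractant, was the most abundant member and overlapped widely between genotypes. The gene (NCBI gene 56221, chr5:135569935-135573123, minus strand) had an FPKM of 37.63, 33.60, 28.77 and 64.31 in TBX20fl/fl;K14-Cre replicates 1 to 4 and of 56.57, 77.24, 65.79 and 21.90 in TBX20fl/fl replicates 1 to 4. Each group held a mouse that lay with the other group, TBX20fl/fl;K14-Cre replicate 4 among the high values and TBX20fl/fl replicate 4 below all mice. The means were 41.1 ± 15.9 and 55.4 ± 23.9 (SD, n = 4 each; exact permutation p = 0.371). edgeR put the log2 fold change from counts at -0.67 (SE 0.429, edgeR Benjamini-Hochberg adjusted p = 0.505), -0.29 without TBX20fl/fl replicate 2 and 0.0021 without TBX20fl/fl replicates 2 and 3, where its sign turned. It was -0.16 with the length trend removed. Without TBX20fl/fl replicate 4 it was -0.96, and the FPKM difference was -25.5 against -14.3 with all mice.

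Ccl25, the Ccr9 ligand, was the least abundant member. The gene (NCBI gene 20300, chr8:4325205-4360020, plus strand) overlaps exons of Elavl1 on the opposite strand, with which it shares 155 of 7536 stretches of 50 bases (2.06%). Its FPKM was 1.65, 2.09, 1.71 and 1.01 in TBX20fl/fl;K14-Cre replicates 1 to 4 and 1.39, 2.30, 1.87 and 1.43 in TBX20fl/fl replicates 1 to 4. The groups covered nearly the same range, with means of 1.62 ± 0.448 and 1.75 ± 0.428 (SD, n = 4 each; exact permutation p = 0.743) on 22 to 45 and 30 to 41 estimated counts. From counts, the log2 fold change was -0.37 (SE 0.342, edgeR Benjamini-Hochberg adjusted p = 0.567). It was -0.069 without TBX20fl/fl replicate 2 and turned to 0.032 with the length trend removed.

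TBX20fl/fl replicate 2 held the highest FPKM of 5 of the 6 members, and TBX20fl/fl replicate 3 that of Ccl22. The lowest values were spread over more mice, with Ccl17 and Ccl24 lowest in TBX20fl/fl replicate 4 and Ccl19 and Ccl20 lowest in TBX20fl/fl;K14-Cre replicate 1. Summed over the members, FPKM was 65.76 to 107.45 in the TBX20fl/fl;K14-Cre group and 67.17 to 152.77 in controls, and Ccl24 made up 32.6% to 59.9% of the sum in a mouse.

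By mean FPKM over the 8 mice the order was Ccl24 (48.2), Ccl19 (25.2), Ccl22 (12.2), Ccl17 (5.43), Ccl20 (5.04) and Ccl25 (1.68). Ccl19 exceeded Ccl22 and Ccl20 exceeded Ccl25 in 8 of 8 mice, Ccl24 exceeded Ccl19 in 7 and Ccl22 exceeded Ccl17 in 7. Ccl17 and Ccl20 could not be ordered, since Ccl17 was the higher in 3 of 8 mice. Among the 21 CC chemokines in the table, the place by mean FPKM in the TBX20fl/fl;K14-Cre group and in controls was 9 and 10 for Ccl24, 11 and 13 for Ccl19, 15 and 16 for Ccl22 and 19 in both for Ccl25. Ccl17 and Ccl20 held places 17 and 18, in opposite orders in the genotypes. Ccl24 and Ccl19 thus lay near the middle of the family and the other 4 members toward its low end.

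**Figure D4:**
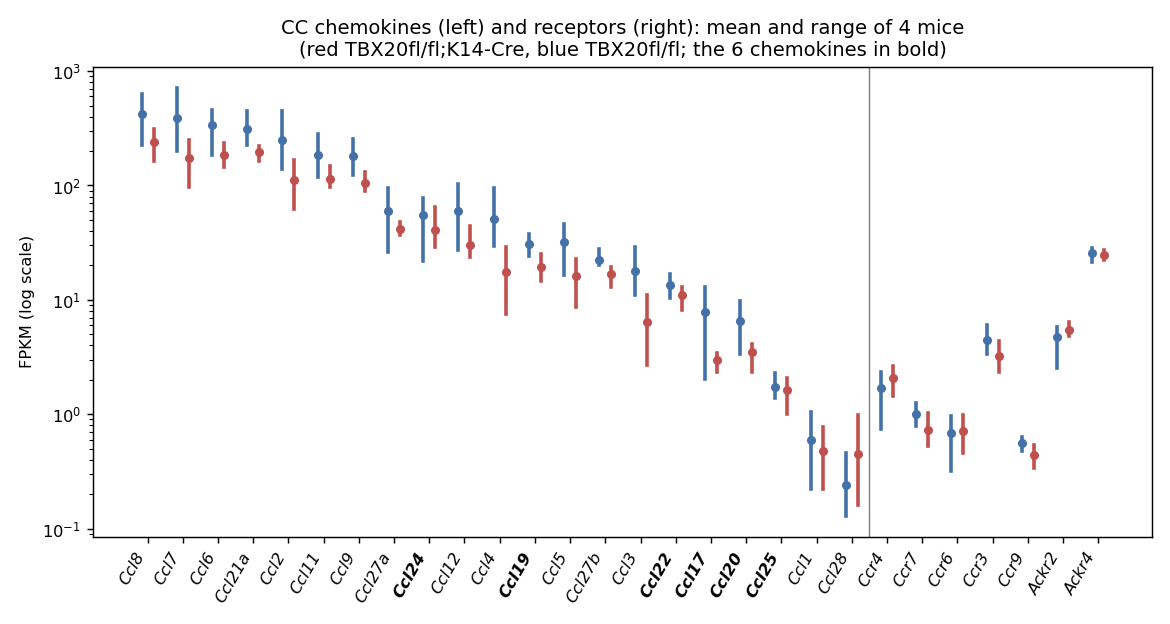
FPKM (vertical log axis) of the 21 CC chemokines in order of their mean over 8 mice, and of 7 receptors at the right, with the mean (point) and range (bar) of 4 TBX20fl/fl mice (blue) and 4 TBX20fl/fl;K14-Cre mice (red). The 6 members, in bold, run from Ccl24 at a mean of 48.2 to Ccl25 at 1.68, and the signalling receptors Ccr4, Ccr7, Ccr6, Ccr3 and Ccr9 have means between 0.443 and 4.48.

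The 5 signalling receptors of the members were present at low FPKM. Of the 7 receptors tested, 0 had an edgeR adjusted p under 0.05 and 1, Ccr9, had an unadjusted p under 0.05 in the lower direction, against 5.91% of all genes (0 to 3 receptors when single mice were left out). Their median log2 fold change was -0.27. Ccr4, which binds Ccl17 and Ccl22, had an FPKM of 2.06 ± 0.496 in the TBX20fl/fl;K14-Cre group and 1.68 ± 0.665 in controls (SD, n = 4 each), with a log2 fold change of 0.17 (SE 0.274, edgeR Benjamini-Hochberg adjusted p = 0.731). Its lowest value, 0.75, came from TBX20fl/fl replicate 2, where Ccl17 was highest, and without that mouse the log2 fold change turned to -0.0061. Ccr6, the receptor of Ccl20, was at 0.710 ± 0.220 and 0.688 ± 0.280, a log2 fold change of -0.00063, and of -0.20 without TBX20fl/fl replicate 2.

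Ccr7, the receptor of Ccl19, was at 0.730 ± 0.216 in the TBX20fl/fl;K14-Cre group and 1.00 ± 0.203 in controls, a log2 fold change of -0.63 (SE 0.286, edgeR Benjamini-Hochberg adjusted p = 0.498). Ccr3, the eosinophil receptor of Ccl24, was at 3.21 ± 0.959 and 4.48 ± 1.27 (log2 fold change -0.68, SE 0.306). Ccr9, the receptor of Ccl25, was at 0.443 ± 0.0818 and 0.565 ± 0.0686 (log2 fold change -0.52, SE 0.215, unadjusted p = 0.0376). The ranges of the genotypes overlapped for all of these receptors. Without TBX20fl/fl replicate 2 the log2 fold change was -0.56 for Ccr7, -0.47 for Ccr3 and -0.48 for Ccr9. Without TBX20fl/fl replicates 2 and 3 it was -0.38 for Ccr7, -0.13 for Ccr3 and -0.46 for Ccr9, so that of Ccr3 shrank most. The scavenging receptors Ackr2, which takes up several inflammatory CC chemokines, and Ackr4, which takes up Ccl19 and Ccl25, had log2 fold changes of 0.11, which turned to -0.032 without TBX20fl/fl replicate 2, and -0.27, which became -0.11 without that mouse. Ackr4 was the most abundant receptor at 24.5 and 25.9.

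Of the 15 other CC chemokines tested, 0 had an edgeR adjusted p under 0.05 and 12 had an unadjusted p under 0.05 in the lower direction, against 5.91% of all genes. Their log2 fold change was below 0 for 14 of 15, with a median of -1.06, against -0.78 for the members. Leaving out single mice, the count was 8, without TBX20fl/fl;K14-Cre replicate 1 or 3, to 13, without TBX20fl/fl replicate 4. It was 7 with the length trend removed and 4, with a median of -0.41, without TBX20fl/fl replicates 2 and 3. The test of a difference between these groups of genes was not run.

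Markers of the cells that make or follow these chemokines were measured in the same libraries. Summed FPKM of 13 markers of mature migratory dendritic cells, cells known to make Ccl17, Ccl22 and Ccl19, was 87.0 to 130.3 in the TBX20fl/fl;K14-Cre group and 100.7 to 153.1 in controls, with 6 of 13 at an unadjusted edgeR p under 0.05 in the lower direction (5.91% of all genes) and 1 in the higher. The lower count was 2 without TBX20fl/fl replicate 2 or without TBX20fl/fl;K14-Cre replicate 1, 3 without TBX20fl/fl replicate 3 or without TBX20fl/fl;K14-Cre replicate 2, and at most 7 without any other mouse. The higher count was 2 without TBX20fl/fl replicate 2. With the length trend removed, 4 were lower and 2 higher. By FPKM ranges, 0 of 13 were wholly lower (1.87% of all genes) and 2 wholly higher (5.19%). The 16 dendritic cell markers gave 1786 to 3004 and 2021 to 3590, with 2 of 16 lower by that measure. This count was 4 without TBX20fl/fl replicate 4, 2 without TBX20fl/fl replicate 1 and 0 without any other mouse. The 14 T cell markers gave 36.3 to 46.7 and 36.3 to 68.4, with 2 of 14 lower, from 0 without TBX20fl/fl;K14-Cre replicate 1 to 5 without TBX20fl/fl replicate 1 or 4. Ccl5 stands both in the mature dendritic cell list and among the other CC chemokines, and Ccr7 both in that list and among the receptors. All 3 sums overlapped between the genotypes, none of these markers was at 0 in all mice, and their part in the chemokine values was not tested.

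For Ccl24, the 8 eosinophil markers summed to 173.3 to 250 FPKM in the TBX20fl/fl;K14-Cre group and 176.0 to 559.0 in controls, with the highest sum in TBX20fl/fl replicate 2. Of the 7 tested, 2 had an unadjusted edgeR p under 0.05 in the lower direction (5.91% of all genes), from 0 without TBX20fl/fl replicate 2 or TBX20fl/fl;K14-Cre replicate 1 or 2 to 6 without TBX20fl/fl replicate 4. Ccr3 is among these markers and among the receptors. The eosinophil granule gene Epx was at 0 to 0.02 FPKM in every mouse. For Ccl19, the 11 markers of B cells and lymph node summed to 179 to 232 and 239 to 468, without overlap, but most of the sum was the lymphatic chemokine Ccl21a, which is also counted among the other CC chemokines, and 9 of the 11 were below 1 FPKM in every mouse. The 11 neutrophil markers summed to 111.5 to 301.1 and 294.1 to 979.4, with 6 of 11 lower (5 to 7 when single mice were left out). The part of these cells in the values of the chemokines was not tested.

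The members differed in how they varied from mouse to mouse. Over the 15 pairs of members, the log2 CPM of 2 pairs were correlated across the 8 mice with a Benjamini-Hochberg adjusted exact permutation p under 0.05 for Pearson's r, and 0 pairs for Spearman's rho. Ccl17 and Ccl22 had r = 0.860 (exact permutation p = 0.00476, adjusted 0.0357) and rho = 0.905 (p = 0.00456, adjusted 0.0543). Ccl17 and Ccl24 had r = 0.849 (exact permutation p = 0.00109, adjusted 0.0164) and rho = 0.881 (p = 0.00724, adjusted 0.0543). Without TBX20fl/fl replicates 2 and 3, the mice farthest from the median of Ccl17, r was 0.572 and 0.734 over 6 mice. Within the genotypes, of 4 mice each, r of Ccl17 with Ccl22 was 0.441 in TBX20fl/fl;K14-Cre and 0.979 in TBX20fl/fl, and r of Ccl17 with Ccl24 was 0.226 and 0.920, higher in the controls for both pairs, a difference that was not tested. Ccl19, Ccl20 and Ccl25 were in no pair past the threshold. The permutation takes the mice of both genotypes as exchangeable, so differences between genotypes or between libraries enter these p-values.

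The genes nearest each member in pattern, by Pearson's r of log2 CPM over the 8 mice among up to 13298 genes, were different for each. For Ccl17 they were the T cell receptor subunit Cd3d (r = 0.977), the MHC class II gene H2-Aa (0.976) and the interferon-induced GTPase Tgtp2 (0.974). Cd3d and Ccl17 shared the same 2 highest mice, TBX20fl/fl replicates 2 and 3, in which Cd3d FPKM was 5.84 and 5.33 against 2.05 to 3.10 in the others. For Ccl22 they were Ctsw, a protease of cytotoxic lymphocytes (0.996), the vessel growth factor Angpt2 (0.984) and the matrix metalloproteinase Mmp27 (0.974), and r with Ctsw was 0.995 without TBX20fl/fl replicate 2. For Ccl24 they were the adenosine receptor Adora2b (0.990), Apol10b (0.980) and Serpinb6e (0.970).

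For Ccl19 the nearest genes were the stress gene Gadd45g (0.982), the chemokine Ccl4 (0.966) and the metallothionein Mt2 (0.956). For Ccl20 they were the actin-capping genes Capzb (0.989) and Capg (0.982) and Npdc1 (0.980), and for Ccl25 Cby1 (0.980), Arfip2 (0.976) and Serf1 (0.973). Without TBX20fl/fl replicate 2 the places changed most for Mt2, to 16 for Ccl19, and for Capg and Npdc1, to 12 and 14 for Ccl20. With 8 mice and this many genes searched, such values are a description, and the library of TBX20fl/fl replicate 2 entered all of them.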

How the data were processed

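RNA of BNP-injected cheek skin from 4 TBX20fl/fl;K14-Cre and 4 TBX20fl/fl mice was sequenced with single-end reads of 50 bases. For read filtering the authors ran SOAPnuke (options -n 0.05, -q 0.2 and -l 15), and the submitters' processing notes name HISAT. The program that counted reads, and whether it used strand, are not given in the sources used here. The authors deposited estimated counts per gene, which are not normalized, and FPKM values made on the Dr. Tom platform. Coordinates are those of the deposited table and of GRCm38.p6. Not used were 16 per-mouse columns of TPM and normalized counts, 40 columns of group means and 51 columns of log2 fold changes, p-values and q-values from the authors' own 17 comparisons.

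Counts were rounded, and the 17124 genes whose counts summed to 10 or more were scaled by TMM and compared by edgeR's quasi-likelihood F test (version 4.0.16, R 4.3.3), with Benjamini-Hochberg adjustment and a threshold of 0.05. Standard errors were obtained as log2 fold change over root F. The detection floor of 3 counts equals 0.151 to 0.187 CPM per library and covers counting error only. FPKM were compared with limma 3.58.1 on log2(FPKM + 1) for the 15969 genes that averaged 0.1 FPKM or more, and for each member by a two-sided exact permutation test over all 70 assignments, which allows no p below 0.0286. P-values for genotype set the difference between the groups against the spread between mice. Alternatives were other normalizations, filters and pseudocounts, DESeq2 1.42.0, leaving out each mouse, the replicate number as a block, and removal of a loess trend (span 0.5) of log2 CPM deviation on transcript length, fitted where the mean count reached 50. Same-numbered mice are different animals whose numbers come from the deposited labels. Their deviations from the group means correlated at 0.160 to 0.405 in all 4 pairs. Other pairs ran from -0.518 to 0.426, so these ranges overlap and do not establish a pairing. The labels state no pairing. The main tests therefore leave the numbers out, and the replicate block and sign-flip tests are alternatives.

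Named genes were the 6 members, their 7 receptors, genes among the 3 with the smallest edgeR p in each other list, where a list's genes are named at all, and the 3 genes nearest each member by Pearson's r. The lists were the other CC chemokines, inputs (cytokines, receptors and transcription factors known to act on chemokine genes), and markers of dendritic cells, mature migratory dendritic cells, T cells, B cells and lymph node, macrophages, eosinophils, neutrophils, keratinocytes, dermal fibroblasts, salivary gland, skeletal muscle and adipocytes. Members and lists were chosen with earlier results of these data known. Epx and Tbx20 were named after their values were seen. Shared sequence was found by comparing stretches of 50 bases of the GENCODE transcripts of the same build. Python 3.11.15 was used for permutation tests.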

Additional observations from a re-analysis of the deposited data

Results flagged for a closer look

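The summed FPKM of the mature migratory dendritic cell markers was far lower in TBX20fl/fl replicate 4, at 100.69, than in the other TBX20fl/fl mice, at 144.83 to 153.06. This gap was past the limit for a mouse apart from its group of 4, and it was the single such case in 58 groups examined, where chance gives about 2.9. The same mouse had the lowest Ccl17 and the lowest Ccl24 of all mice, at 2.02 and 21.90 FPKM. TBX20fl/fl;K14-Cre replicates 1 and 2 had lower marker sums, at 87.04 and 96.91. Their Ccl17 (2.34 and 2.94) and Ccl24 (37.63 and 33.60) were nonetheless higher.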

How the results depend on the processing

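No edgeR setting called a gene at an adjusted p under 0.05, limma called none under any setting run, and DESeq2 called 10 genes, 9 lower and 1 higher in TBX20fl/fl;K14-Cre mice and none a member. The log2 fold change of Ccl25 turned to 0.032 with the length trend removed, to 0.012 with the length trend removed and the replicate block, and to 0.10 without TBX20fl/fl replicates 2 and 3, and that of Ccl24 turned to 0.0021 without TBX20fl/fl replicates 2 and 3. The difference in FPKM of Ccl25 turned to 0.0692 without TBX20fl/fl;K14-Cre replicate 4 and to 0.0517 without TBX20fl/fl replicate 2. The cause of these turns was not tested. Leaving out both of those controls, and adding the copies of Ccl19 to it, were chosen after seeing the data.

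Leaving out each mouse moved the log2 fold change over a range from -1.97 to -1.09 for Ccl17, -1.05 to -0.62 for Ccl19, -1.39 to -0.70 for Ccl20, -0.59 to -0.33 for Ccl22, -0.96 to -0.29 for Ccl24 and -0.51 to -0.069 for Ccl25. The number of genes past the threshold stayed at 0, with a smallest adjusted p of 0.264 to 0.691 in edgeR. The FPKM difference of Ccl17 ranged from -6.86, without TBX20fl/fl replicate 4 (exact permutation p = 0.0286), to -3.25, and that of Ccl20 from -4.12 to -1.99. Under the replicate block, log2 fold changes were -1.26 for Ccl17, -0.85 for Ccl19, -1.02 for Ccl20, -0.44 for Ccl22, -0.58 for Ccl24 and -0.35 for Ccl25, and the block changed no call at an adjusted p under 0.05. The unadjusted p of Ccl17 went from 0.0236 to 0.0630 with it, so that 2 of 6 members were under 0.05. With 4 pairs an exact sign-flip test cannot go below 0.125. With library totals alone the median of all genes moved to 0.17, and the median of the members was -0.56. The counts behind Ccl17, Ccl20 and Ccl25 were as low as 18, 34 and 22 in a mouse, and the part of counting error in their spread was not tested.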

Other observations

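Cytokines, cytokine receptors and transcription factors known to act on chemokine genes were measured as a list of 18 genes. Of these, 7 had an unadjusted edgeR p under 0.05 in the lower direction (5.91% of all genes; 4 without TBX20fl/fl;K14-Cre replicate 1) and 0 in the higher, 0 passed after Benjamini-Hochberg adjustment, and the median log2 fold change was -0.71. The inflammatory cytokines Il1a, Il1b and Tnf had the smallest p. Il1a was at 14.5 ± 1.26 FPKM in the TBX20fl/fl;K14-Cre group and 22.1 ± 3.39 in controls, without overlap. Il1b was at 33.0 ± 19.9 and 113.8 ± 60.05, and Tnf at 2.31 ± 1.04 and 4.93 ± 1.86 (SD, n = 4 each), both with overlap. The type 2 cytokines Il4 and Il13 were at no more than 12 and 8 estimated counts in any mouse, and Il17a at no more than 6. These 3 were named after their values were seen.

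Among the other marker lists, 3 of 13 macrophage genes had an unadjusted edgeR p under 0.05 in the lower direction (5.91% of all genes), from 1 without TBX20fl/fl replicate 2 or TBX20fl/fl;K14-Cre replicate 1 or 2 to 7 without TBX20fl/fl replicate 1, and the median log2 fold change was -0.33. Of 8 dermal fibroblast genes 2 had such a p in the higher direction (2.45% of all genes; 0 without TBX20fl/fl;K14-Cre replicate 3). In the lower direction 0 did (0 to 3 with single mice left out). Of 11 keratinocyte genes 2 had such a p in the lower direction (0 without TBX20fl/fl;K14-Cre replicate 1, 2 or 3) and 1 in the higher (0 without those mice or without TBX20fl/fl replicate 3). Of 7 adipocyte genes 1 did in the lower (0 to 2 with single mice left out). Of 9 skeletal muscle genes 0 did in either direction (0 to 2 lower and 0 to 1 higher with single mice left out). Of 3 salivary gland genes 0 did, also with any single mouse left out. The median log2 fold change was 0.18 for fibroblast genes (0.030 to 0.26 with single mice left out), 0.040 for keratinocyte genes (-0.26 to 0.047), -0.072 for adipocyte genes (-0.24 to -0.021), 0.031 for skeletal muscle genes (-0.10 to 0.14) and 0.044 for salivary gland genes (-0.22 to 0.35).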
